A study of Mus musculus with 6 samples.

Results

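Genes of the thick ascending limb and the distal convoluted tubule were examined in kidneys of lupus-prone mice. The set held 9 genes, Slc12a1, Umod, Kcnj1, Bsnd, Cldn16, Slc12a3, Pvalb, Egf and Trpm6, taken by name as known markers of these tubule segments. They were found on the array as every non-control probe with one of these gene names, which gave 13 probes of 56605, and 9 gene names of 36870. Of these 13 probes, 12 passed the filter on dim signals, under which 39924 probes of the array were tested, and each of the 9 genes kept at least 1 tested probe.

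The arrays compared 3 female MRL/MpJ mice (MRL mice) with 3 female MRL/MpJ-Fas lpr/lpr mice (LPR mice), both at 6 months of age. LPR mice carry the lpr mutation of Fas, a death receptor of lymphocytes, on the MRL background. This background is shared with the controls and is itself prone to autoimmunity. RNA of the whole kidney, 1 array per mouse and without pooling, was labelled with Cy3 and read on single-colour Agilent arrays. All cell types of the kidney thus enter 1 value, and fewer cells of a segment cannot be told apart from less RNA per cell of that segment.

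The thick ascending limb reabsorbs salt without water. The cotransporter NKCC2 (Slc12a1) takes up sodium, potassium and chloride at the apical membrane, ROMK (Kcnj1) recycles the potassium, chloride leaves through basolateral channels whose subunit is barttin (Bsnd), and the resulting lumen-positive voltage drives magnesium and calcium through tight junctions built with claudin-16. The distal convoluted tubule follows, reabsorbs salt through the thiazide-sensitive cotransporter NCC (Slc12a3) and takes up magnesium through the channel TRPM6, which epidermal growth factor (Egf) stimulates. Uromodulin (Umod) is the protein that the thick ascending limb secretes into urine, and parvalbumin (Pvalb) is a calcium-binding protein of the early distal convoluted tubule. Egf is made in both segments and was counted here with the distal convoluted tubule.

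The probes are 60 bases long, and their letters are given for the genes on which the comparison turns. Trpm6 passed the test, Slc12a3 had the widest contrast between uniform MRL mice and scattered LPR mice, and Cldn16 was the gene that lay on the other side. Sequences are those of the array design, 5′ to 3′, in lower case because no part of them is singled out.
Trpm6 probe A_52_P184322: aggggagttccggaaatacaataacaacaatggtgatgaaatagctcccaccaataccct
Slc12a3 probe A_51_P445985: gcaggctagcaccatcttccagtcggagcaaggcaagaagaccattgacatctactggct
Cldn16 probe A_51_P428512: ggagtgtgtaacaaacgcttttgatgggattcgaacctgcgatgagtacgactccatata
Egf was read by 3 probes, and the first 30 bases of each are shown because they are separate readings of the gene: over the whole probes no pair shared a run longer than 6 bases, and the probes lay 21907 to 57763 bases apart.
Egf probe A_55_P2822952: cttcttgaagtctttcccagtgaaaacgct
Egf probe A_55_P2736929: caagcaagcatggaaggtattgtgttcacc
Egf probe A_55_P2733187: ggctaacatttactacttaagatttgcttt

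Levels below are log2 signals relative to the 75th percentile of the array, so a level of 0 is the signal at that percentile, and levels are compared between mice for 1 probe and never between probes. Changes are LPR minus MRL on this scale, with the standard error (SE) and p-value of limma, adjusted by the method of Benjamini and Hochberg over all 39924 probes at a threshold of 0.05. Positions are those of the array annotation on the mouse build mm9. Exons, introns and UTRs were not assigned here. With 3 mice against 3, an exact permutation test cannot give a p below 0.1, so none is given. The labels do not name litters or days, and the number of mice limits the precision of every value.

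The arrays were alike in quality. They had 69.6 to 73.5% of the probes well above background, no saturated spot, and a 75th percentile of 700 to 930 intensity units. LPR replicate 1 had the highest of these percentiles. On the slide, column 1 held the 3 MRL mice and LPR replicate 1, and column 2 held LPR replicates 2 and 3. Fas was read by a pair of probes. Probe A_55_P2091676 read -0.35, -0.27 and -0.04 in MRL mice and -0.47, -1.23 and -0.36 in LPR mice, a change of -0.47 (SE 0.24, limma adjusted p = 0.235). The signal of the second Fas probe, A_52_P73385, exceeded background on all 3 LPR arrays and on 0 of the MRL arrays. The probes were not matched to the site of the lpr mutation, so they do not test the genotype. Over all tested probes the median change was -0.13, and 68.3% of the changes were negative.

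Among the 9 genes, Egf and Trpm6 fell in LPR mice and none rose, taking the brightest tested probe of each gene. Without MRL replicate 1, 2 or 3 or LPR replicate 3 none of the 9 passed as lower, and without LPR replicate 1 or 2 Trpm6 alone did. With all mice kept, Egf and Trpm6 were 22.2% of the genes. Over all 25805 genes tested this way 5.39% were lower and 7.12% higher. The median change of the 9 genes was -0.52, against -0.12 over all genes tested. In 7 of 9 genes, 77.8%, every LPR mouse lay below every MRL mouse, against 25.4% of all genes. Cldn16 lay above in every LPR mouse, and Bsnd overlapped. By probe, 4 of 12 were lower, 33.3%, against 6.07% of all tested probes, and 0 of 12 were higher, against 6.54%. Of these 4, 3 were probes of Egf, and Slc12a1 had 2 of the 12. Probes of 1 gene read the same mice and are not separate observations. All LPR mice lay below all MRL mice in 10 of 12 probes, against 26.6% of all tested probes, and above them in 1, against 11.1%. Without adjustment, 9 of 12 probes had a limma p under 0.05 in the lower direction and 1 in the higher. Of all 39924 tested probes, 8123 and 3942 did. Within the thick ascending limb 0 of 5 genes passed the limma test (without adjustment 2 lower and 1 higher), at a median change of -0.20. Within the distal convoluted tubule 2 of 4 passed, at a median of -0.65, and all 4 genes had the groups apart. The difference between the segments was not tested.

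**Figure D1:**
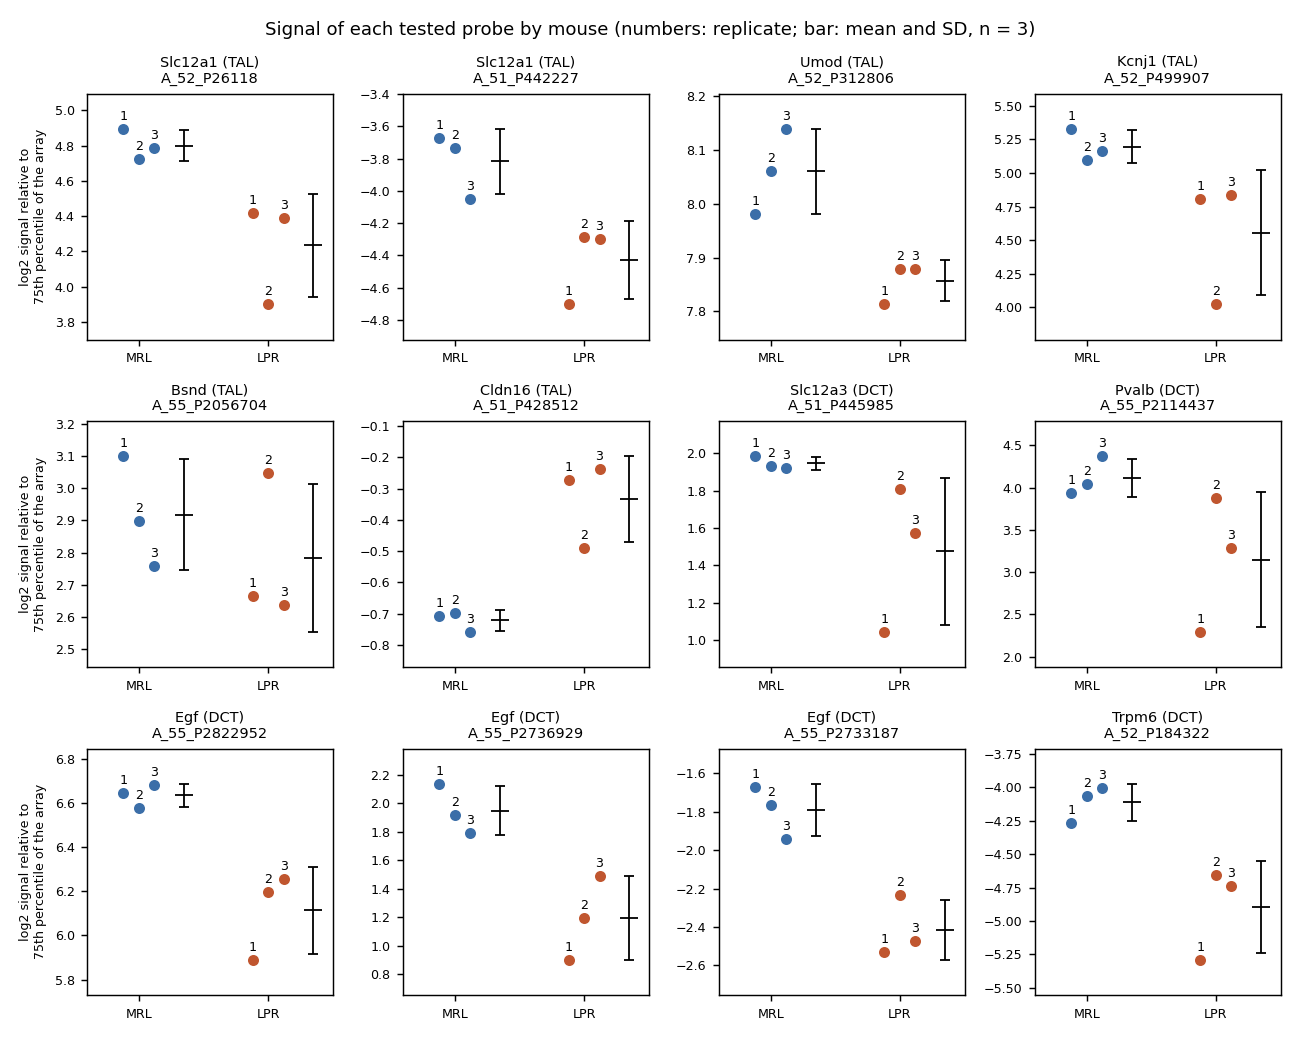
Log2 signal relative to the 75th percentile of the array (vertical axis, its range set for each panel) for the 12 tested probes in each MRL mouse (blue) and LPR mouse (orange), with the replicate number beside each point and the mean and SD of 3 mice as a bar. LPR mice lie below MRL mice in 10 panels, above them in that of Cldn16, and mixed with them in that of Bsnd.

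The apical transporters of the thick ascending limb were lower in every LPR mouse, but not past the threshold in the main test. For Slc12a1, probe A_52_P26118 (NM_001079690, chr2:125055224-125055283, plus strand) read 4.90, 4.72 and 4.78 in MRL mice and 4.42, 3.90 and 4.39 in LPR mice. LPR replicate 2 was the lowest, and the groups were 0.30 apart at their nearest mice. The change was -0.57 (SE 0.16, limma adjusted p = 0.0670). A second, much dimmer Slc12a1 probe, A_51_P442227 (U61381, chr2:125021044-125021103, plus strand), read -3.67, -3.73 and -4.05 against -4.70, -4.28 and -4.30. Here LPR replicate 1 was the lowest, and the groups were again apart. Its change was -0.61 (SE 0.17, limma adjusted p = 0.0570), close to that of the other probe on this scale. The dimmer probe lay at 42.2 to 57.1 intensity units in MRL mice and 35.7 to 38.2 in LPR mice. With normexp background correction its change was -0.31 (limma adjusted p = 0.0781), against -0.57 for the brighter probe. Kcnj1, the potassium channel ROMK, was read by A_52_P499907 (NM_019659, chr9:32206612-32206671, plus strand). Its level was 5.33, 5.10 and 5.16 in MRL mice and 4.81, 4.02 and 4.84 in LPR mice. LPR replicate 2 stood well below the other LPR mice, which were alike. The change of Kcnj1 was -0.64 (SE 0.23, limma adjusted p = 0.117). Without LPR replicate 2 it was -0.37 (adjusted p = 0.0895), while that of Slc12a1 was -0.40 (adjusted p = 0.0643). Of 19 alternative settings, the brighter Slc12a1 probe passed under 3: normexp (limma adjusted p = 0.0168), a filter for signal on all 6 arrays (0.0499) and an intensity trend (0.0289). The dimmer Slc12a1 probe passed under that filter alone (limma adjusted p = 0.0418), and Kcnj1 under normexp alone (0.0436).

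Uromodulin and barttin had the smallest differences. Umod, by A_52_P312806 (NM_009470, chr7:126606529-126606588, minus strand), read 7.98, 8.06 and 8.14 in MRL mice and 7.81, 7.88 and 7.88 in LPR mice. The LPR mice were alike and all lay below the MRL mice, by 0.10 at the nearest. The change of -0.20 had a 95% interval of -0.44 to 0.03 (limma adjusted p = 0.216), and scaling on epithelial genes, described below, turned it to 0.06. Bsnd, by A_55_P2056704 (NM_080458, chr4:106156065-106156124, minus strand), read 3.10, 2.90 and 2.76 against 2.66, 3.05 and 2.64. LPR replicate 2, the lowest mouse for Slc12a1 and Kcnj1, was the highest LPR mouse here and lay among the MRL mice. The interval of the Bsnd change, -0.50 to 0.23 around -0.14, includes 0 (limma adjusted p = 0.587), and the same scaling turned it to 0.13.

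Cldn16 was the 1 gene of the set with a positive change. This claudin of the thick ascending limb, whose loss in humans wastes magnesium and calcium in urine, was read by A_51_P428512 (NM_053241, chr16:26474305-26474364, plus strand). Its level was -0.71, -0.70 and -0.76 in MRL mice and -0.27, -0.49 and -0.24 in LPR mice. All LPR mice were above all MRL mice, by 0.21 at the nearest. A position of this kind was found for 11.8% of all genes. The change of 0.39 (SE 0.11, 95% interval 0.13 to 0.65) missed the threshold at a limma adjusted p of 0.0652. It passed without LPR replicate 2, at 0.47 and an adjusted p of 0.0348, with normexp background correction (adjusted p = 0.0280) and with an intensity trend (adjusted p = 0.0349).

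In the distal convoluted tubule the MRL mice were uniform for Slc12a3 and the LPR mice were not. The NCC probe A_51_P445985 (NM_019415, chr8:96875636-96875695, plus strand) read 1.98, 1.93 and 1.92 in MRL mice and 1.04, 1.81 and 1.57 in LPR mice. The SD was 0.03 in MRL mice and 0.39 in LPR mice, and LPR replicate 1 stood lowest. The change was -0.47 (SE 0.20, limma adjusted p = 0.162), and -0.25 without LPR replicate 1 (adjusted p = 0.236). Pvalb, by A_55_P2114437 (NM_001330686, chr15:78021951-78022010, minus strand), had the largest change of the 9 genes and the widest spread. It read 3.94, 4.04 and 4.37 in MRL mice and 2.29, 3.87 and 3.28 in LPR mice. LPR replicate 1 was again the lowest, whereas LPR replicate 2 was only 0.06 below the lowest MRL mouse. The change was -0.97 (SE 0.38, 95% interval -1.86 to -0.07), which did not pass (limma adjusted p = 0.141), and without LPR replicate 1 it was -0.54 (adjusted p = 0.189).

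Egf fell by all 3 of its probes. The brightest, A_55_P2822952 (NM_010113, chr3:129380577-129380636, minus strand), read 6.64, 6.58 and 6.68 in MRL mice and 5.89, 6.20 and 6.26 in LPR mice. The MRL mice were alike, LPR replicate 1 was the lowest mouse, and the groups were 0.32 apart. Egf fell by 0.52 on the log2 scale (SE 0.13, limma adjusted p = 0.0429), to 69.8% of the MRL signal. Probe A_55_P2736929 (ENSMUST00000197713, chr3:129402544-129402603, minus strand) read 2.14, 1.92 and 1.79 against 0.90, 1.19 and 1.49 and fell by 0.75 (SE 0.18, limma adjusted p = 0.0360). Probe A_55_P2733187 (ENSMUST00000198816, chr3:129438400-129438459, minus strand) read -1.67, -1.76 and -1.94 against -2.53, -2.24 and -2.47 and fell by 0.62 (SE 0.13, limma adjusted p = 0.0252). In each of these probes LPR replicate 1 was the lowest mouse and the groups did not overlap. The call of the brightest probe was close to the threshold: leaving out any 1 of the 6 mice gave changes of -0.59 to -0.41 with adjusted p of 0.0588 to 0.126. Of the other Egf probes, A_55_P2736929 passed without LPR replicate 3 alone (-0.90, adjusted p = 0.0302) and otherwise ranged from -0.83 to -0.61, and A_55_P2733187 passed without MRL replicate 3 (-0.70, adjusted p = 0.0433) or LPR replicate 2 (-0.71, adjusted p = 0.0222) and otherwise ranged from -0.61 to -0.56. Scaling each array on 7 tubular epithelium genes gave -0.25 for the brightest probe (adjusted p = 0.297). That probe also missed the threshold with a median shift (limma adjusted p = 0.0567) and without the filter on dim probes (0.0870). The t-test of the study's methods gave it an adjusted p of 0.0876.

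Trpm6, the magnesium channel, fell by 0.78 on the log2 scale. Probe A_52_P184322 (NM_153417, chr19:18952126-18952185, plus strand) read -4.27, -4.07 and -4.00 in MRL mice and -5.29, -4.65 and -4.74 in LPR mice. LPR replicate 1 was the lowest, and the groups were 0.39 apart, the widest gap among the 12 probes. The SE was 0.19 and the limma adjusted p 0.0395. This was a dim probe, at 37.7 to 43.7 intensity units in MRL mice and 23.8 to 29.0 in LPR mice, although it was well above background on all 6 arrays. With normexp in place of the scanner's background subtraction the change was -0.41 (adjusted p = 0.0444). The call was lost with quantile normalization (limma adjusted p = 0.0624), without the filter on dim probes (0.0831) and with the epithelial scaling (0.144). It was also lost with the t-test of the study's methods (adjusted p = 0.122). Without LPR replicate 1 or 2 the call held (-0.58, adjusted p = 0.0490, and -0.90, adjusted p = 0.0431), and without MRL replicate 1, 2 or 3 or LPR replicate 3 the changes were -0.86, -0.76, -0.73 and -0.86 with adjusted p of 0.0759, 0.112, 0.115 and 0.0738. The second Trpm6 probe, A_51_P243073 (AK080899, chr19:18898061-18898120, plus strand), was not well above background on any array and was not tested.

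**Figure D2:**
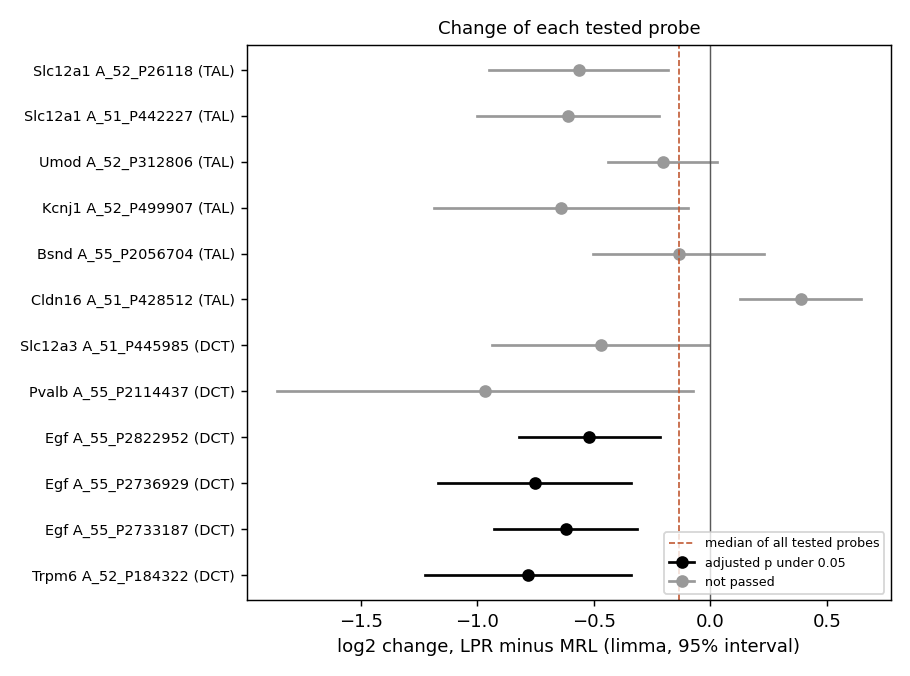
Log2 change of LPR against MRL mice (horizontal axis) for the 12 tested probes, points with the 95% interval of limma, in black where the adjusted p was under 0.05 and in grey where it was not. The 3 Egf probes and the Trpm6 probe passed, from -0.52 to -0.78, and the dashed line marks the median of all tested probes at -0.13.

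The lowest LPR mouse differed between genes. Against the mean of the MRL mice, LPR replicate 2 was lowest for Slc12a1 and Kcnj1, at -0.90 and -1.18. In the same mouse Pvalb was at -0.24 and Slc12a3 at -0.13. LPR replicate 1 was lowest for Slc12a3, Pvalb, Egf and Trpm6, at -0.90, -1.83, -0.74 and -1.18, and was at -0.38 for Slc12a1 and -0.39 for Kcnj1. This did not divide the segments: in the thick ascending limb Umod and the dimmer Slc12a1 probe were lowest in LPR replicate 1, and Bsnd was lowest in LPR replicate 3 and highest, among LPR mice, in LPR replicate 2. LPR replicate 3 lay between the other LPR mice for Slc12a3, Pvalb and Trpm6. The position on the slide moved with this pattern in part, since LPR replicate 1 shared its column with the MRL mice. Within that column the comparison is that of LPR replicate 1 alone with the 3 MRL mice, whose values are those just given for this mouse, and it holds no spread among LPR mice. Column 2 held LPR mice only and gives no such value.

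**Figure D3:**
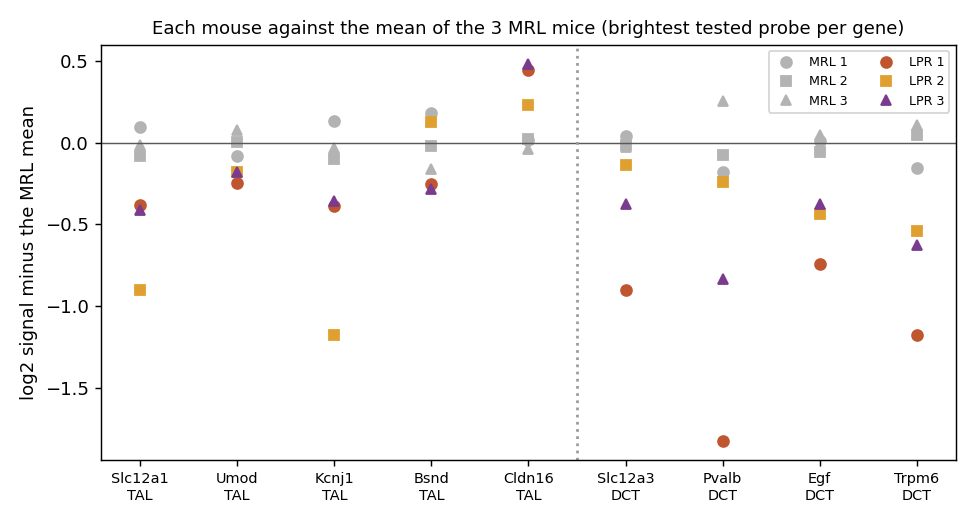
Log2 signal of each mouse minus the mean of the 3 MRL mice (vertical axis) for the brightest tested probe of the 9 genes, thick ascending limb (TAL) on the left and distal convoluted tubule (DCT) on the right, with MRL mice in grey and LPR mice in colour, and circles, squares and triangles for replicates 1, 2 and 3. LPR replicate 2 is lowest for Slc12a1 and Kcnj1, and LPR replicate 1 for the 4 genes of the distal convoluted tubule.

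The partners of these genes were followed in a list of 48 genes in 6 groups, all of which were tested. Of these, 10 were lower in LPR mice, 20.8%, and none was higher, against 5.39% lower and 7.12% higher over all genes. In 29, 60.4%, all LPR mice lay below all MRL mice, against 25.4%. Without adjustment, 20 were lower and 0 higher by limma. Of all 39924 tested probes, 8123 were lower and 3942 higher, a count of probes and not of genes. With the probes of each gene averaged, 5202 of 25805 genes were lower and 2752 higher. The median change of the partners was -0.31, and 43 of the 48 changes were negative. The number of lower partners was 2, 3 and 2 without MRL replicate 1, 2 or 3, and 4, 11 and 2 without LPR replicate 1, 2 or 3, and it was 2 within slide column 1, where LPR replicate 1 was the only LPR mouse.

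Among channels, pumps and transporters 5 of 15 fell, against 5.39% of all genes, at a median of -0.36. Trpv5, the apical calcium channel of the late distal convoluted tubule and connecting tubule, had the smallest adjusted p of the 48 genes. Its probe A_51_P239601 (chr6:41602985-41603044) read -2.22, -1.99 and -2.02 in MRL mice and -3.50, -3.19 and -3.14 in LPR mice. The groups were 0.91 apart, and LPR replicate 1 was the lowest. Trpv5 fell by 1.20 (SE 0.14, limma adjusted p = 0.00197). Slc8a1, the sodium-calcium exchanger that carries calcium out of the same cells, read 0.10, -0.24 and 0.55 against -1.29, -0.63 and -1.40 and fell by 1.25 (SE 0.27, limma adjusted p = 0.0280). A second Slc8a1 probe fell by 0.95 (limma adjusted p = 0.00519), and another, at -0.69, did not pass (adjusted p = 0.141). Also lower were Slc9a3, the apical sodium-proton exchanger, which the proximal tubule also has (-0.48, limma adjusted p = 0.0251), and Atp1b1, a subunit of the sodium pump (-0.43, adjusted p = 0.0415). Kcnj16, a basolateral potassium channel subunit, did not pass (-0.76, limma adjusted p = 0.131). It read 6.18, 6.23 and 6.59 in MRL mice and 5.89, 4.92 and 5.92 in LPR mice, and LPR replicate 2 was the lowest, as for Kcnj1.

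Calb1, which encodes the calcium buffer calbindin of the distal tubule, fell by all 3 of its probes. The brightest, A_51_P335801 (chr4:15832543-15832602), read 5.01, 5.17 and 5.09 in MRL mice and 3.25, 4.40 and 4.03 in LPR mice. As for Pvalb, LPR replicate 1 was the lowest and LPR replicate 2 the highest of the LPR mice. Calb1 fell by 1.19 (SE 0.28, limma adjusted p = 0.0353), and by 1.59 and 1.65 at the other probes (adjusted p = 0.00254 and 0.00719). The other calcium-binding gene, S100g, overlapped between the groups (-0.25, limma adjusted p = 0.562).

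The kinase pathway that controls NKCC2 and NCC had 4 of 9 genes lower, against 5.39% of all genes, at a median of -0.41. WNK kinases activate SPAK, which phosphorylates the cotransporters, and the ligase of KLHL3 and CUL3 marks WNK kinases for degradation. Genes on both sides fell: Wnk4 by 0.53 (limma adjusted p = 0.0197) and Stk39, which encodes SPAK, by 0.52 (0.0202), as well as Klhl3 by 0.76 (0.0159) and Cul3 by 0.51 (0.0206). The Klhl3 probe was dim, at 48.1 to 57.4 intensity units in MRL mice and 32.4 to 37.1 in LPR mice. With normexp its change was -0.40 (limma adjusted p = 0.028). When each of the 6 mice was left out in turn, Klhl3 passed 5 times, Cul3 and Stk39 2 times each and Wnk4 1 time. For Stk39 the second probe read -0.36 and did not pass (limma adjusted p = 0.0554). Sgk1, an aldosterone-induced kinase, varied widely within both groups (0.03, adjusted p = 0.963). In 8 of the 9 genes all LPR mice lay below all MRL mice, against 25.4% of all genes.

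The other groups of partners held no gene that passed, and without adjustment 1 claudin, 1 receptor or signal and 3 transcription factors were lower by limma. The 5 claudins beside Cldn16 had changes of -0.29 to -0.11, so that Cldn19, which pairs with claudin-16 in the tight junction, did not share its direction: it read 0.12, -0.14 and -0.07 in MRL mice and -0.23, -0.20 and -0.53 in LPR mice, a change of -0.29 (limma adjusted p = 0.198). The 9 receptors and local signals, among them the calcium-sensing receptor Casr (-0.30, adjusted p = 0.186) and the receptor of epidermal growth factor, Egfr (-0.30, adjusted p = 0.185), had a median of -0.29. The 8 transcription factors of the distal nephron were all negative, at -0.56 to -0.19.

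**Figure D4:**
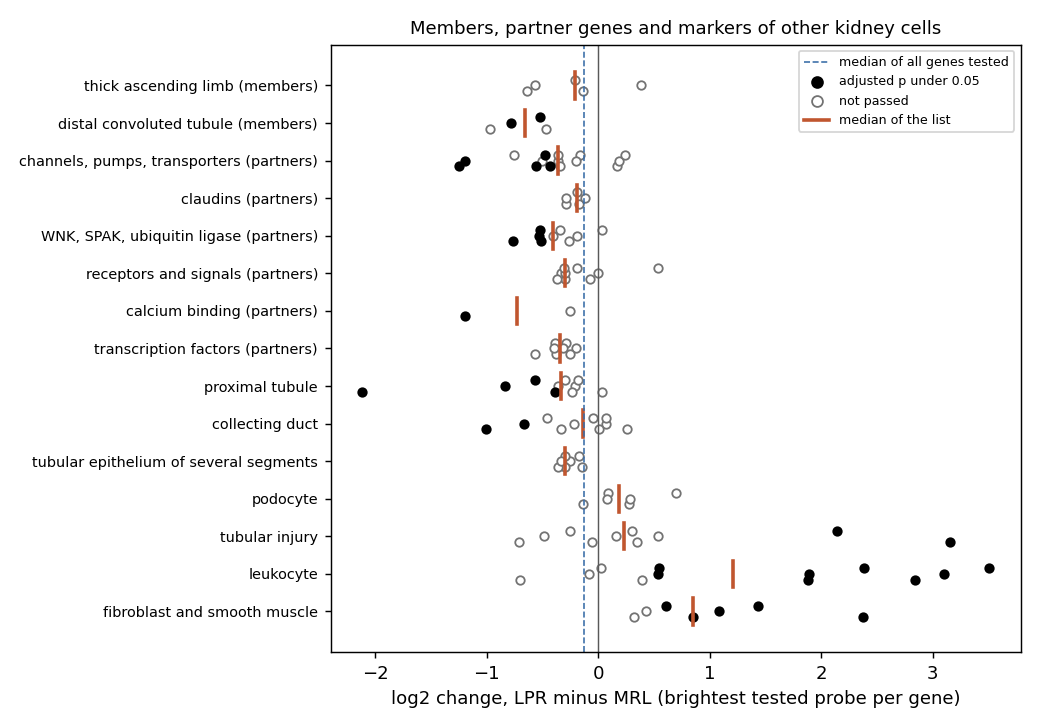
Log2 change of LPR against MRL mice (horizontal axis) by gene list, 1 point per gene for its brightest tested probe, filled where the adjusted p was under 0.05 and open where it was not, with the median of each list as a bar and the median of all genes as a dashed line. The 9 genes and their partners lie mostly left of 0, with medians of -0.20 for the thick ascending limb and -0.65 for the distal convoluted tubule, and the leukocyte list lies right of it at 1.21.

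Markers of the other kidney cells were set beside these values. Over all genes tested, 5.39% were lower and 7.12% higher, and in 25.4% all LPR mice lay below all MRL mice. Without adjustment, 8123 of all 39924 tested probes were lower and 3942 higher by limma. With the probes of each gene averaged, 5202 of 25805 genes were lower and 2752 higher without adjustment. Of 10 proximal tubule markers 4 were lower (Slc5a2, Slc5a12, Lrp2 and Slc7a13), at a median of -0.33, and of 10 collecting duct markers 2 were lower (Aqp4 and Slc26a4), at a median of -0.13. None of 7 epithelial markers shared by several segments passed (3 lower without adjustment), at a median of -0.29, and 6 of them had all LPR mice below all MRL mice. None of 6 podocyte markers passed (1 higher without adjustment), at a median of 0.18. Of 12 leukocyte markers 8 rose, among them the T cell gene Cd3e by 1.89 and Laptm5, a gene of blood cells, by 2.38. Without adjustment, 9 of the 12 were higher and 1 lower by limma. The B cell gene Ms4a1 was at -0.70 with all LPR mice below all MRL mice (limma adjusted p = 0.0504), Itgam was at -0.08 and Cd8a at 0.03. Of 7 genes of fibroblasts and smooth muscle 5 rose, at a median of 0.85. Of 10 tubular injury genes Lcn2 and Cd44 rose, by 2.14 and 3.15, and Cd44 is also a leukocyte gene. Without adjustment 3 of the 10 were higher and 2 lower by limma, the latter Krt18 (-0.49) and Sox9 (-0.71). The summed signal of the leukocyte list, in units of the 75th percentile, was 31.3 to 39.8 in MRL mice and 51.3 to 54.1 in LPR mice, and none of its 12 genes was below background on any array. That of the fibroblast and smooth muscle list was 28.0 to 31.0 against 53.0 to 58.5. The epithelial list summed to 235 to 253 against 193 to 231, the thick ascending limb genes to 332 to 353 against 276 to 292, and the distal convoluted tubule genes to 116 to 127 against 66.3 to 91.6. These sums add probes of unlike brightness. Those of the segments were set mostly by 1 bright probe each, that of Umod and that of Egf. None of the sums measures the share of a cell type. The part of these cell types in the results above was not tested. With each array scaled on the 7 epithelial genes, the median of all probes moved from -0.13 to 0.13 and that of the 9 genes from -0.52 to -0.25. The median of the 48 partners was then -0.04, and 2 of them were lower. On that scale none of the 9 genes was lower, 6 were negative, Umod was at 0.06, Bsnd was at 0.13 and Cldn16 was higher at 0.65 (limma adjusted p = 0.0222).

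Pvalb, with the largest change, was used to find genes of like pattern among 23216 candidates. Likeness was the root mean square difference of the 6 centred log2 values, where a smaller value is more alike. The nearest were Gm12589 (0.177), Gldc (0.224), 6720483E21Rik (0.226), 5730437C11Rik (0.240) and Wfdc15a (0.247). Of the set itself, Trpm6 (0.300), Slc12a3 (0.373) and Egf (0.447) were nearest to Pvalb, and Kcnj1 (0.729) and Cldn16 (0.867) farthest.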

How the data were processed

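Per the labels, RNA was taken from kidneys of 6 mice with an RNeasy kit, whereas the study's methods name TRIzol. The authors deposited the intensity of each spot from Feature Extraction 12.0.3.1 (version from the submitters' processing notes), background-subtracted and detrended within the array but not normalized between arrays. A deposited table of the intensity divided by the 75th percentile was used as an alternative.

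Control and outlier spots (73 to 90 per array) were left out, log2 intensities were shifted by the 75th percentile of each array, and spots of a probe were averaged. Probes well above background on at least 3 of 6 arrays were tested with limma 3.58.1 in R 4.3.3, and the steps were tested on simulated data. The brightest tested probe stands for a gene. All 9 member probes with a RefSeq accession matched the same symbol in the current RefSeq list. Genes named are the members, partners that passed with a few that did not for context, markers, Fas, and the 5 genes most like the member with the largest change. Casr, Egfr, Cldn19, Kcnj16, S100g, Sgk1, Ms4a1, Itgam, Cd8a, Krt18 and Sox9 were named after their values were seen. Members, lists and tests were chosen with earlier results of these data known. The alternatives were other normalizations, background correction, filters and tests, slide column and replicate number as blocks, and leaving out each mouse. Some genes are not reported here and remain in the counts. No column of another series was used.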

Additional observations from a re-analysis of the deposited data

How the results depend on the processing

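Of the 9 genes, 2 were lower. This number was 4 with normexp background correction and 4 with the slide column as a block, 3 with the intensity trend, the all-array filter, the mean of the probes and within column 1, 1 with quantile normalization and with a median shift, and 0 without a filter on dim probes, with the methods' t-test and with scaling on epithelial genes. As column 2 held LPR mice only, the column block and the comparison within column 1 both rest on LPR replicate 1 alone, with no spread among LPR mice. Leaving out each mouse gave 0 to 1. Cldn16 was higher with normexp (1 gene), the intensity trend (1 gene) and epithelial scaling (1 gene), and leaving out each mouse gave 0 to 1 higher. Umod and Bsnd turned to 0.061 and 0.129 under epithelial scaling. Of the 48 partners, 10 were lower, and 17 with normexp, 5 without a filter, 3 with the slide column as a block, 2 within column 1, 2 with epithelial scaling, and 2 to 11 without each mouse. Trpv5 passed under all 19 alternatives.

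Over all tested probes 2423 were lower and 2610 higher. The lower number was 4542 with normexp, 1086 without a filter, 456 with the slide column as a block, 1346 with the methods' t-test, 309 within column 1, 383 with epithelial scaling, and 749 to 2270 without each mouse. The higher number was 1469 with the column block, 1732 with the methods' t-test, 1105 within column 1 and 4128 with epithelial scaling. Unadjusted, the methods' t-test gave 7104 lower and 3595 higher, with 4 of the 9 genes lower and 1 higher. The comparison within column 1 and the epithelial scaling were chosen after seeing the data, and the cause of each shift was not tested.

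Replicate numbers are shared between the groups. Deviations of same-numbered mice from their group means correlated at 0.12, 0.02 and 0.01, and those of other pairs at -0.07 to 0.05. With 3 mice per group these values cannot show whether the mice were paired. With a replicate block, 1 of the 9 genes (Trpm6), 3 partners and 1107 probes were lower.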
